A study of Mus musculus with 15 samples.

Results

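The 30 genes described here carry out or control cholesterol synthesis, uptake and efflux in the liver, and they were found by symbol among the 21702 protein-coding genes counted in 15 mouse livers. All 30 passed the filter on low counts, which kept 12172 genes. Their counts lay between 28 and 14845 in any 1 library, and together they took 0.151% to 0.485% of a library's counts. By role they were 4 genes of the SREBP machinery (Srebf2, Scap, Insig1 and Insig2), 19 synthesis enzymes (8 of the mevalonate arm and 11 of the sterol arm), the carrier gene Stard4, and 6 genes of the LXR branch (Nr1h3, Nr1h2, Abca1, Abcg5, Abcg8 and Mylip). None of the 30 encodes a receptor that takes up lipoproteins, and Mylip, whose product marks such a receptor for degradation, is the gene closest to uptake.

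The livers came from wild-type young adult females, of strain C57BL/6 in the labels and C57BL/6N in the study's methods, that were virgin before mating, 3 mice to a group. Every mouse, controls included, had received adeno-associated virus of serotype 8 (AAV8) through the tail vein before mating, either without a gene (AAV8-null) or carrying mouse p21 cDNA (AAV8-p21), from a construct whose TBG promoter works in hepatocytes. The groups were non-pregnant (NP) mice with AAV8-null, and mice at 8 and at 16 days post-coitum (dpc) with AAV8-null or AAV8-p21, so no NP mice with AAV8-p21 were compared. The study asked what blocking hepatocyte division by p21 does to the maternal liver in pregnancy. Levels of Cdkn1a, the gene for p21, checked the labels. In the 9 AAV8-null livers they lay between 3.29 and 127.4 CPM (counts relative to the library total, scaled by TMM), and in the 6 AAV8-p21 livers between 346.9 and 1664 CPM, so the groups did not overlap.

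Cholesterol in hepatocytes is held steady by opposing programmes. When membrane sterol is low, SCAP carries the transcription factor SREBP2, encoded by Srebf2, from the endoplasmic reticulum to the Golgi, where it is cut and released to switch on the synthesis enzymes, and when sterol is high the INSIG proteins hold SCAP back. Sterol derivatives meanwhile activate the nuclear receptors LXR-alpha and LXR-beta (Nr1h3 and Nr1h2), which switch on exporters such as ABCA1, ABCG5 and ABCG8 and the ubiquitin ligase encoded by Mylip.

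The DNA upstream of these genes is shown first, because the enzymes of this pathway are known for short motifs there that they share. RefSeq promoter windows (build GRCm38.p6) were found for 26 of the 30 members, 34 windows in all, and for each the 250 bases before the annotated start were searched on both strands for TCACNCCAC, a form of the sterol response element that SREBP binds, for the CCAAT box and for the GC box GGGCGG. No base of the sequences shown belongs to more than 1 motif. The sequences of 4 enzymes that varied together between livers, of Insig2 and Scap, which varied in other ways, and of Abcg8 are printed 5′ to 3′ on the strand of each gene, with motif matches in capitals. They lie at chr13:119690101-119690350 on the plus strand (Hmgcs1), chr5:114444019-114444268 plus (Mvk), chr5:4104698-4104947 minus (Cyp51), chr8:64733579-64733828 minus (Msmo1), chr1:121332590-121332839 minus (Insig2), chr9:110333038-110333287 plus (Scap) and chr17:84682871-84683120 plus (Abcg8). For Insig2 and Scap, which have 3 and 2 windows, the start lying farthest upstream was used, and for Abcg8 the start that faces Abcg5.
Hmgcs1: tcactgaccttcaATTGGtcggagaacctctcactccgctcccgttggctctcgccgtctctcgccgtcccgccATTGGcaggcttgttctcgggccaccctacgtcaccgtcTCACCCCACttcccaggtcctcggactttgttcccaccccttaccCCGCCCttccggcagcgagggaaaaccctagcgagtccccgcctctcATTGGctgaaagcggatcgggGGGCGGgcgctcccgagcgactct
Mvk: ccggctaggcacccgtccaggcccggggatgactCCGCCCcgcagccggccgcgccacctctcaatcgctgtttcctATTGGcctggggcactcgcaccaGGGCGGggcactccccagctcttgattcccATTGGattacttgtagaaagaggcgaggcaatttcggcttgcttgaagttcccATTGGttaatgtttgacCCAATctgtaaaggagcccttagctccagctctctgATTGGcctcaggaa
Cyp51: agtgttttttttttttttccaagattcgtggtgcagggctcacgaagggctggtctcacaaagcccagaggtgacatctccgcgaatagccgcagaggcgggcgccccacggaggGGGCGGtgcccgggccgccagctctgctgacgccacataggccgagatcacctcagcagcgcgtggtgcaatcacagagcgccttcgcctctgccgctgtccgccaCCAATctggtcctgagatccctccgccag
Msmo1: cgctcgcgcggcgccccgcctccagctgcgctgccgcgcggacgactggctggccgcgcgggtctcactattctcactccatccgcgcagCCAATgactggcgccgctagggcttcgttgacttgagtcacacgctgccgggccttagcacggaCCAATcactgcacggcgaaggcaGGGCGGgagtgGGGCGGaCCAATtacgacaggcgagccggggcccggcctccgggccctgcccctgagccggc
Insig2: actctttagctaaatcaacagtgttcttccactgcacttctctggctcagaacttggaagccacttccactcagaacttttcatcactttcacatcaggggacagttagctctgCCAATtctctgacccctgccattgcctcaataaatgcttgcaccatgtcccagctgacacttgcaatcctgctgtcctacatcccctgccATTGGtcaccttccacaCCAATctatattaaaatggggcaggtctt
Scap: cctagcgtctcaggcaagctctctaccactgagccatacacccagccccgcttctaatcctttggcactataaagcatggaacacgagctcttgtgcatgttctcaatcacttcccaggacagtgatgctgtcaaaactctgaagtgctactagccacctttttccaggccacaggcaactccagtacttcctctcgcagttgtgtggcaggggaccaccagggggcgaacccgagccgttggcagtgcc
Abcg8: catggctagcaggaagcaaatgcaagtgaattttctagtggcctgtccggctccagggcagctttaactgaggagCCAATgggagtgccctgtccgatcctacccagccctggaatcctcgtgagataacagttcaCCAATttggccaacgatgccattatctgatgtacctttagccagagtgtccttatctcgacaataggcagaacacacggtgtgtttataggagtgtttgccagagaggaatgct

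Of the 16 synthesis enzymes with a window, 15 had a CCAAT box and 14 a GC box in at least 1 window. Counted by window, 78.9% of the 19 enzyme windows held a CCAAT box and 78.9% a GC box, against 33.8% and 32.7% of all 32851 windows in the table. The sterol response element form was found in 1 member window, that of Hmgcs1, at bases -137 to -129 before the start, and in 1.05% of all windows. The Scap sequence shown held none of the 3 motifs, and its other window held 1 GC box, at bases -30 to -25. The Insig2 sequence shown held 3 CCAAT boxes, and its other 2 windows held 1 GC box each. Abcg5 and Abcg8, whose products together form 1 sterol exporter, are transcribed away from each other on chromosome 17 from starts with 109 bases between them, so the Abcg8 sequence holds upstream DNA of both. A match is a description of the letters and not of a bound factor, and other forms of the sterol response element were not searched.

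Most of the 19 enzymes were high or low in the same livers, and these livers differed within groups as well as between them. Ggps1 varied by 1.201-fold to 1.51-fold within a group. Hsd17b7, encoding a reductase of the sterol arm, followed most enzymes in some groups only. With AAV8-null at 8 dpc and with AAV8-p21 at 16 dpc it was highest in the liver that was lowest for most enzymes. With AAV8-null at 16 dpc and with AAV8-p21 at 8 dpc it was highest in mouse 2, which was highest for most enzymes. The heat map of all members shows the shared pattern as columns of 1 colour through most rows of the mevalonate and sterol arms.

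**Figure D1:**
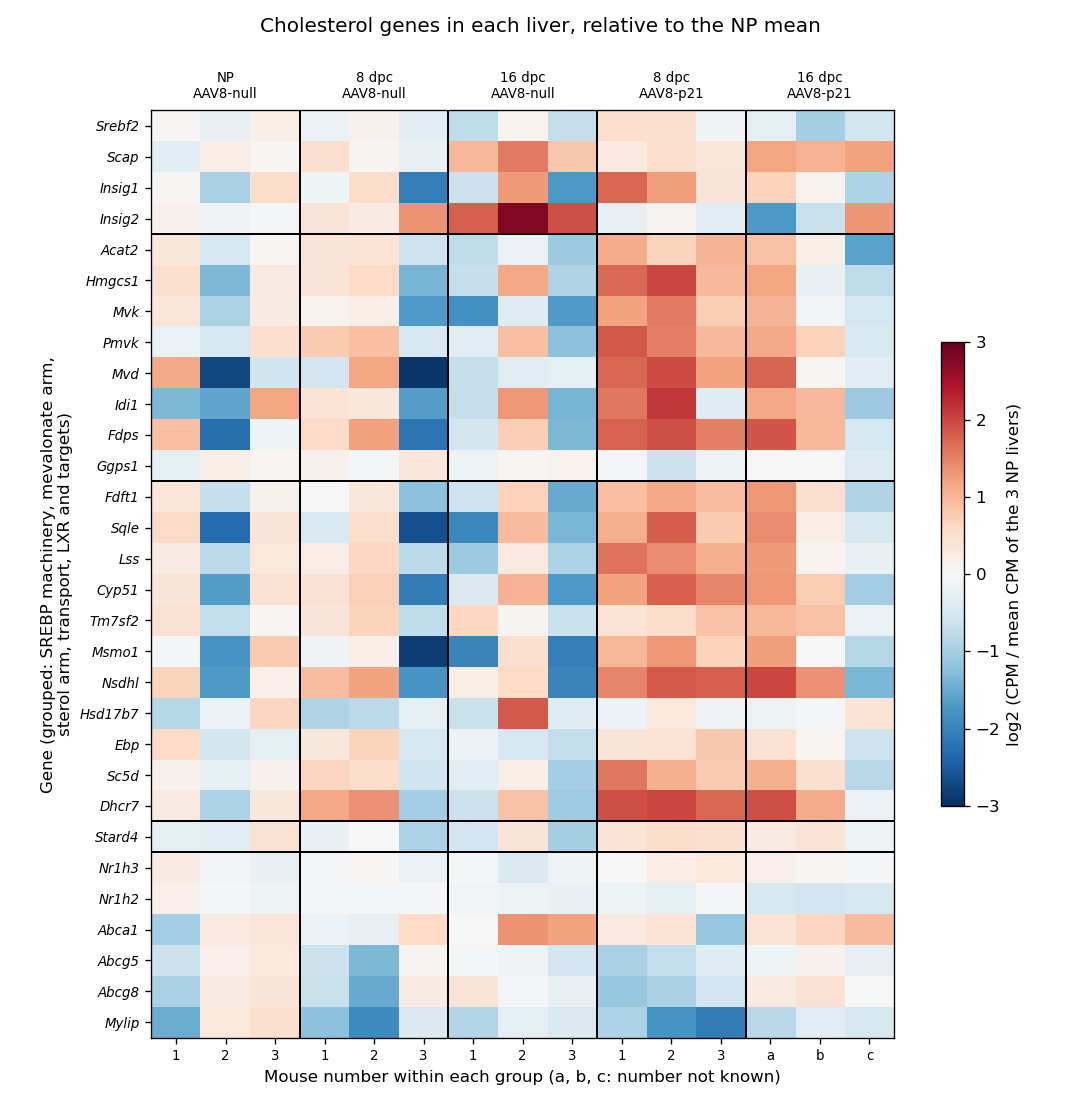
Level of each of the 30 members (rows) in each of the 15 livers (columns, 3 mice a group), as log2 of its CPM over the mean CPM of the 3 NP livers. The 3 livers with AAV8-p21 at 8 dpc are red through most enzyme rows, single livers of other groups are blue through the same rows, and Insig2 is reddest in the 3 livers with AAV8-null at 16 dpc.

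Mouse 2 had the lowest level of the 3 NP livers for 17 of the 19 enzymes, mouse 3 that of the AAV8-null livers at 8 dpc for 17, and 1 liver of AAV8-p21 at 16 dpc, here called c, that of its group for 18. Among all genes tested these livers were the lowest of their group for 27.3%, 40.1% and 40.3%. At the other end, mouse 2 of the AAV8-null group at 16 dpc was highest for 15 of 19 enzymes and liver a of AAV8-p21 at 16 dpc for 17, against 35.5% and 34.2% of all genes. The median enzyme differed 2.38-fold between the highest and lowest NP liver, 3.28-fold and 4.17-fold in the AAV8-null groups at 8 and 16 dpc, and 3.86-fold with AAV8-p21 at 16 dpc, where the median gene of all those at a mean of at least 2 CPM differed 1.46-fold, 1.38-fold, 1.45-fold and 1.39-fold. In the AAV8-p21 group at 8 dpc the median enzyme differed 1.46-fold, close to the 1.395-fold of all genes there. Cyp51, which removes a methyl group from lanosterol, ran from 16.8 to 116.8 CPM within the AAV8-null group at 8 dpc and from 165.9 to 246.3 CPM in the AAV8-p21 group at the same stage.

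Other programmes differed between the same livers. Over 9 genes of fatty acid synthesis, the mean log2 level (log2 of CPM plus 0.5) was lowest of its group in the same 3 livers as the enzymes, at 5.465 in NP mouse 2, 5.46 in AAV8-null mouse 3 at 8 dpc and 4.87 in liver c. Over 13 genes of fasting and PPAR-alpha activity, the same 3 livers had the highest mean of their groups, at 8.54, 8.65 and 8.89. The AAV8-null group at 16 dpc did not show this order for the fasting genes, since its mouse 2 had both the highest enzyme mean (5.79) and the highest fasting mean (9.98). Its mouse 3, with the lowest enzyme mean (4.195), had a fasting mean of 9.3 and the lowest fatty acid mean (4.458). With AAV8-p21 at 8 dpc, mouse 2 had the highest enzyme mean (6.569) but the lowest fatty acid mean (7.13). Mouse 3 of that group had the lowest enzyme mean (6.156) and the highest fasting mean (7.789). Clock genes differed too: the mean log2 level of Arntl, Npas2 and Clock less the mean of 6 genes in antiphase (Ciart, Dbp, Nr1d1, Nr1d2, Per3, Tef) ran from -4.055 to 0.39 in NP livers and from -2.88 to 2.66 in the AAV8-p21 livers at 8 dpc. Feeding state and hour of collection of these livers are not given in the sources used here, and the part of feeding, clock phase or dissection in the spread of the enzymes was not tested.

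**Figure D2:**
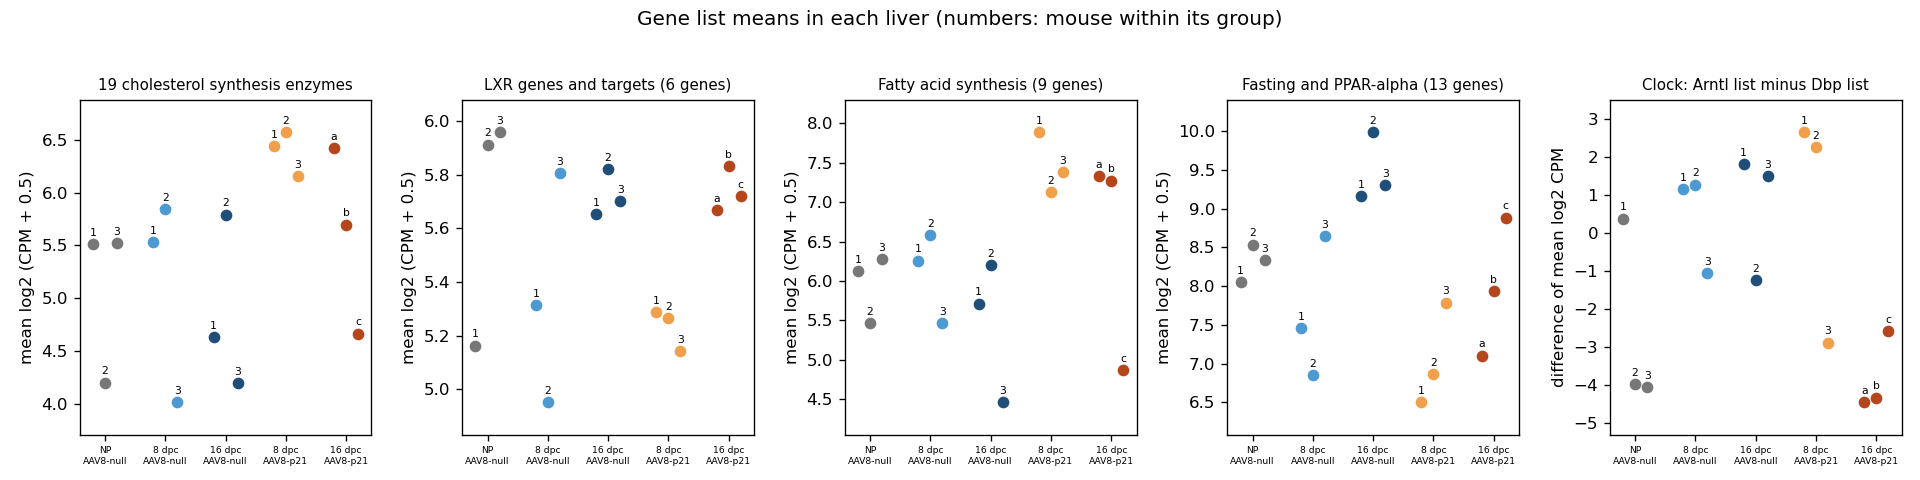
Mean log2 (CPM + 0.5) of 4 gene lists and, at the right, the difference between 2 clock gene lists, in each of the 15 livers, 1 point a liver, numbered as in the labels (a, b and c where the number is not known). The enzyme and fatty acid synthesis panels dip in NP mouse 2, in AAV8-null mouse 3 at 8 dpc and in liver c, where the fasting panel peaks within those groups. In AAV8-null livers at 16 dpc mouse 2 is highest in both the enzyme and the fasting panel. With AAV8-p21 at 8 dpc mouse 2 is highest in the enzyme panel and lowest in the fatty acid synthesis panel.

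Comparing AAV8-p21 with AAV8-null at 8 dpc asked what p21 does at mid-pregnancy. The mean log2 level of the enzymes was 6.16 to 6.57 in the AAV8-p21 livers and 4.01 to 5.84 in the AAV8-null livers. Liver a of AAV8-p21 at 16 dpc, at 6.417, lay within the range of the AAV8-p21 livers at 8 dpc. All 3 AAV8-p21 livers lay above all 3 AAV8-null livers for 16 of the 30 members, where 5.52% of all genes did so, and these were 15 enzymes and Stard4. A further 2 members, Insig2 and Ggps1, lay wholly below, against 4.49% of all genes. Under edgeR's quasi-likelihood test with Benjamini-Hochberg adjustment over all genes, however, 0 members passed, with a smallest adjusted p of 0.763, where 0.0246% of all genes passed. At an unadjusted p under 0.05 there were 4 members, Hmgcs1, Mvk, Lss and Stard4, against 5.18% of all genes, and the DESeq2 and limma voom fits passed 0 members, against 0.177% and 0.863% of all genes. With 3 mice against 3 an exact permutation test of a single gene cannot go below 0.1, which is the p of each of the 18 members without overlap. RNA from a whole liver piece cannot tell fewer cells of a type from less RNA per cell, which holds for each comparison here.

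The mevalonate arm makes isoprenoid units from acetyl-CoA. Hmgcs1, encoding the cytosolic synthase at its start, was at 171.5, 199.8 and 50.4 CPM in the AAV8-null livers at 8 dpc and at 431.3, 531.3 and 257.7 CPM in the AAV8-p21 livers. Its fitted ratio was 2.89 and its log2 fold change 1.53 ± 0.67 (SE; edgeR adjusted p = 0.921). The lowest AAV8-p21 liver stood above the highest AAV8-null liver.

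Mvk, the mevalonate kinase gene, was at 11.3, 11.7 and 3.23 CPM with AAV8-null and at 23.9, 30.5 and 17.8 CPM with AAV8-p21, a log2 fold change of 1.46 ± 0.52 (SE; edgeR adjusted p = 0.763). Mvd, encoding the decarboxylase that yields isopentenyl diphosphate, was at 8.61, 29.1 and 1.72 CPM with AAV8-null, the widest spread of any enzyme in that group at 16.96-fold, and at 42.2, 50.05 and 29.8 CPM with AAV8-p21. The margin between the groups was small, since the highest AAV8-null liver stood just under the lowest AAV8-p21 liver. Reads of Mvd, and likewise of Fdft1, Cyp51 and Ggps1, could be shared with a gene on the opposite strand, since the setting for strand in the counting is not given. Fdps and Tm7sf2 overlap a gene on the same strand (Gm43738 and Vps51), so their reads could be shared whatever that setting.

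Fdps, the farnesyl diphosphate synthase gene, was at 85.5, 135.3 and 12.4 CPM with AAV8-null and at 196.6, 220.3 and 164.8 CPM with AAV8-p21, without overlap. Idi1, the isomerase gene, was at 8.73, 8.28 and 2.08 CPM against 19.5, 28.5 and 5.11 CPM. The groups overlapped for Idi1 because AAV8-p21 mouse 3 lay below 2 AAV8-null livers. Over the mevalonate arm 7 of 8 log2 fold changes were positive, with a median of 1.39, where the median of all genes was -0.0023. The exception was Ggps1, which makes the precursor for protein prenylation rather than for sterols, at a log2 fold change of -0.43 ± 0.21 (SE).

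The sterol arm turns farnesyl diphosphate into cholesterol, and all 11 of its genes had positive log2 fold changes at 8 dpc, from 0.31 to 1.66 with a median of 1.13. Fdft1, encoding squalene synthase, the first committed step, was at 64.5, 82.0 and 28.0 CPM with AAV8-null and at 122.4, 146.9 and 124.8 CPM with AAV8-p21. Sqle, encoding the epoxidase that acts next, was at 24.4, 47.7 and 5.36 CPM against 70.5, 116.4 and 57.5 CPM, a log2 fold change of 1.66 ± 0.86 (SE; edgeR adjusted p = 1). In neither gene did the groups overlap, and with 1 liver left out the log2 fold change of Sqle ran from 1.18 to 2.45.

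Lss, the lanosterol synthase gene, was at 29.9, 39.2 and 14.8 CPM with AAV8-null and at 78.4, 67.9 and 54.2 CPM with AAV8-p21, a log2 fold change of 1.26 ± 0.47 (SE; edgeR adjusted p = 0.770). Dhcr7, encoding a reductase of the last steps, was at 57.6, 66.6 and 12.5 CPM against 97.6, 102.7 and 84.7 CPM. All 3 AAV8-p21 livers were thus at a like level while AAV8-null mouse 3 stood far under its group. Of the other sterol genes, Cyp51, Msmo1, Nsdhl, Hsd17b7 and Sc5d were without overlap and higher, and Tm7sf2 and Ebp overlapped, with log2 fold changes of 0.40 ± 0.42 and 0.31 ± 0.35 (SE).

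**Figure D3:**
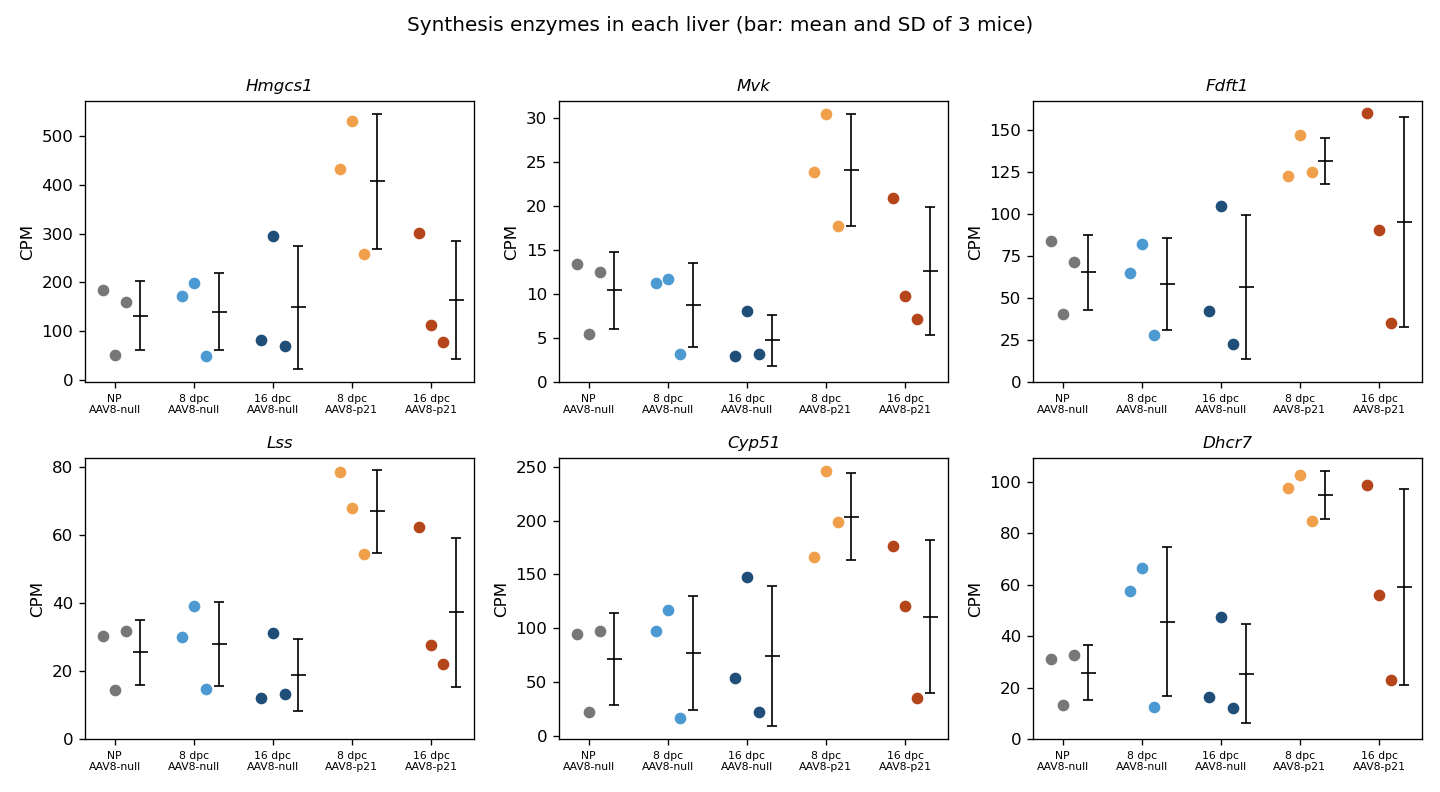
CPM of 6 synthesis enzymes in each liver (points, 3 mice a group), with the mean and SD of each group as a bar. In each panel the 3 livers with AAV8-p21 at 8 dpc lie above the 3 livers with AAV8-null at 8 dpc. At 16 dpc the AAV8-p21 livers overlap the AAV8-null livers, but both their lowest and their highest liver lie above those of the AAV8-null group.

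A count of members without overlap can only stay or rise when a liver is left out. Leaving out AAV8-null mouse 3, the low liver of its group, could therefore not test whether that liver set the count. Without it there were 16 members, against 10% of all genes. Leaving out each of the 6 livers in turn gave 16 to 21 members against 9.14% to 11.4% of all genes. The log2 fold change of Hmgcs1 moved between 1.13 and 1.87 over these fits. Of 9 genes of fatty acid synthesis 7 were wholly higher, against 5.52% of all genes, and the median log2 fold change of the 9 was 1.57. Of 13 fasting genes 12 had negative values, with a median of -0.89. Among the fasting genes 0 were without overlap, where 4.49% of all genes were wholly lower. None of either list passed the edgeR test.

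Markers of other liver cells also differed between these groups at 8 dpc. The summed level of 5 stellate cell markers ran from 84.6 to 138.1 CPM with AAV8-null and from 143.7 to 215.4 CPM with AAV8-p21, with 2 of 5 genes without overlap. That of 5 bile duct markers ran from 18 to 26.8 and from 36.0 to 53.3 CPM (2 of 5). That of 5 erythroid genes ran from 89.3 to 102.1 and from 114.5 to 200.4 CPM (3 of 5). Of all genes 5.52% were wholly higher and 4.49% wholly lower. The sum of 6 hepatocyte markers, most of it Alb, ran from 73720 to 93360 and from 106000 to 128300 CPM (1 of 6 higher and 1 lower). The mean log2 level of these 6 overlapped (11.29 to 11.6 and 11.46 to 11.69), and 3 of 6 log2 fold changes were positive. The sums of the 6 Kupffer cell markers (181.9 to 385.9 and 287.5 to 409.5 CPM), of the 5 endothelial markers (81.3 to 112.8 and 105.8 to 139.9 CPM) and of the 4 lymphocyte markers (1.196 to 2.15 and 2.12 to 2.73 CPM) overlapped, with 1 Kupffer marker wholly higher. No marker of any list was at 0 in all libraries, no marker passed the edgeR test in this comparison, and their part in the enzyme levels was not tested.

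At 16 dpc the same comparison gave fewer members without overlap. Wholly higher was 1 of 30 members, Nr1h3, against 6.65% of all genes, and wholly lower were Insig2 and Nr1h2, against 7.02%. By the edgeR test 0 members passed, where 0.0739% of all genes did, with 3 members at an unadjusted p under 0.05 (Insig2, Mvk and Nr1h2), a share near the 9.77% of all genes. The DESeq2 and limma voom fits passed 1 member each, Insig2 in both, against 0.965% and 0.961% of all genes. Of the 19 enzymes 17 still had positive log2 fold changes, with a median of 0.75, but none was without overlap.

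Hmgcs1 had a fold change at 16 dpc that rested on single livers. It was at 81.8, 294.4 and 70.2 CPM in the AAV8-null livers at 16 dpc and at 300.9, 113.8 and 77.7 CPM in the AAV8-p21 livers, a log2 fold change of 0.14 ± 0.66 (SE; edgeR adjusted p = 0.961). AAV8-null mouse 2 and AAV8-p21 liver a were each well above the rest of their group. Without AAV8-null mouse 2, 10 members were wholly higher with AAV8-p21, against 11.9% of all genes, and without liver c 10 members, against 17.7%. Hmgcs1 was not among the 10 in either case, and such a count cannot fall when a liver is left out. With each of the 6 livers left out, the log2 fold change of Hmgcs1 ran from -0.64 to 1.11. Mvk was at 2.94, 8.08 and 3.20 CPM with AAV8-null and at 20.9, 9.81 and 7.21 CPM with AAV8-p21, overlapping by 1 liver (log2 fold change 1.41 ± 0.55 (SE), edgeR adjusted p = 0.424). With 1 liver left out the log2 fold change of Mvk ran from 0.84 to 2.04.

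Other programmes separated the AAV8-p21 from the AAV8-null livers at 16 dpc. The clock difference defined above ran from -4.45 to -2.58 with AAV8-p21 and from -1.24 to 1.82 with AAV8-null, without overlap, and of the 6 genes in antiphase 4 were wholly higher with AAV8-p21. All 13 fasting genes had negative log2 fold changes, with a median of -1.33, and 4 were wholly lower. The summed bile duct markers ran from 19.6 to 43.0 CPM with AAV8-p21 and from 8.42 to 17.3 CPM with AAV8-null (2 of 5 genes without overlap). The hepatocyte sum, most of it Alb, ran from 269600 to 302200 and from 307500 to 431900 CPM (2 of 6). The mean log2 level of the hepatocyte markers overlapped (12.15 to 12.42 and 12.31 to 12.51), and 3 of 6 log2 fold changes were positive. Of all genes 6.65% were wholly higher with AAV8-p21 and 7.02% wholly lower. The Kupffer, endothelial, stellate, erythroid and lymphocyte sums overlapped. No gene of these lists passed the edgeR test in this comparison, and their part in the levels of Insig2, Nr1h2 and the other members was not tested.

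The change of the p21 effect between stages, tested as an interaction of virus and stage, passed for 0 members and for 0% of all genes in edgeR, with 0 members at an unadjusted p under 0.05, against 3.09% of all genes, and 0 members and 0% of all genes by DESeq2 and by limma voom. For the enzymes 14 of 19 interaction values were negative, with a median of -0.28 on the log2 scale. A difference between the stages in the effect on the pathway was therefore not shown by this test.

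**Figure D4:**
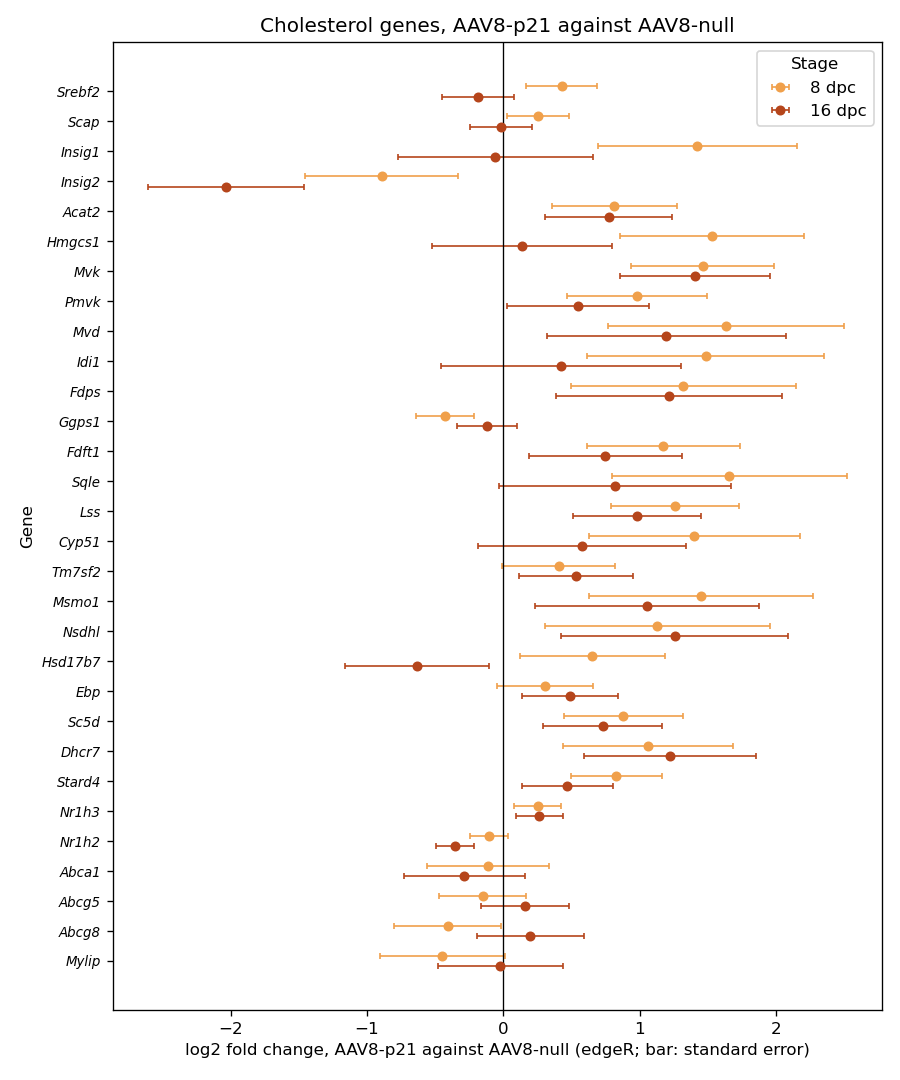
Log2 fold change of AAV8-p21 against AAV8-null for the 30 members at 8 dpc and at 16 dpc, fitted by edgeR, with bars of 1 standard error. At 8 dpc most enzymes lie between 0.81 and 1.66 with wide bars, at 16 dpc 15 of the 19 lie nearer 0 and Tm7sf2, Nsdhl, Ebp and Dhcr7 lie farther from it, and Insig2 is the lowest gene at both stages.

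The SREBP machinery held the members that passed the test with pregnancy stage. In the AAV8-null livers at 16 dpc against NP, Scap and Insig2 rose, 2 of 30 members, where 6.52% of all genes passed, so the share of members (6.67%) was near that of all genes. Both were also the members wholly higher, against 12.1% of all genes, and no member was wholly lower, against 12.5%. Scap encodes the escort of SREBP2. It was at 67.5, 100.4 and 89.3 CPM in NP livers and at 172.2, 252.1 and 151.2 CPM at 16 dpc with AAV8-null, a 2.24-fold rise (log2 fold change 1.16 ± 0.23 (SE), edgeR adjusted p = 0.00848).

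At 8 dpc Scap was at 119.1, 91.3 and 73.6 CPM with AAV8-null, within the range of NP livers but for 1 mouse, and Scap rose 2.03-fold from there to 16 dpc (log2 fold change 1.02 ± 0.23 (SE), edgeR adjusted p = 0.0178). It was the 1 member that passed in that comparison, where 6.87% of all genes did. In the AAV8-p21 livers Scap stood at 105.4, 124.0 and 110.0 CPM by 8 dpc, and its values by 16 dpc were 194.0, 176.6 and 197.6 CPM, without overlap but short of the threshold (log2 fold change 0.74 ± 0.23 (SE), edgeR adjusted p = 0.0969). By DESeq2 (adjusted p = 0.031) and limma voom (adjusted p = 0.0173) this difference in Scap passed. Against NP livers the AAV8-p21 livers at 16 dpc showed a 2.21-fold rise of Scap (edgeR adjusted p = 0.0122), the 1 member passing there, where 3.81% of all genes passed. Both comparisons of 16 dpc with NP use the same 3 NP livers.

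With and without p21 the level of Scap at 16 dpc was thus alike in mean, 191.8 ± 53.2 CPM with AAV8-null and 189.4 ± 11.2 CPM with AAV8-p21 (SD, n = 3 each), and the difference had a log2 value of -0.02 ± 0.23 (SE). Its call against NP livers with AAV8-null was held when each of the 6 livers was left out, and was lost when the compared groups were fitted alone (edgeR adjusted p = 0.0561). Its call from 8 to 16 dpc was lost without mouse 2 of the 8 dpc livers (edgeR adjusted p = 0.0802), without mouse 2 of the 16 dpc livers (0.0897) and when the compared groups were fitted alone (0.0929).

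Insig2 encodes an anchor that keeps SCAP in the endoplasmic reticulum, and its level was among the most variable of the members, 22.7-fold between the lowest and highest liver. It was at 164.1, 139.0 and 147.5 CPM in NP livers, at 194.9, 177.4 and 380.8 CPM at 8 dpc with AAV8-null, and at 518.0, 1031 and 570.9 CPM at 16 dpc with AAV8-null. The 3 groups did not overlap. The rise from NP to 16 dpc was 4.70-fold (log2 fold change 2.23 ± 0.58 (SE), edgeR adjusted p = 0.0329), and that call was lost in 5 of the 6 fits with 1 liver left out, which gave log2 fold changes of 1.86 to 2.42 and adjusted p-values of 0.041 to 0.12. It was held without mouse 1 of the 16 dpc livers, and was lost without any 1 of the 3 NP livers and without mouse 2 or mouse 3 at 16 dpc. From 8 to 16 dpc the value was 1.49 ± 0.57 (SE; edgeR adjusted p = 0.129). That difference passed with the replicate block (1.48, edgeR adjusted p = 0.0343) and by limma voom (1.66, adjusted p = 0.026).

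With AAV8-p21, Insig2 stood lower at both stages. At 8 dpc it was at 126.1, 158.8 and 120.8 CPM, below every AAV8-null liver of that stage (log2 fold change -0.89 ± 0.56 (SE), edgeR adjusted p = 1). At 16 dpc it was at 45.4, 94.2 and 378.1 CPM, again below every AAV8-null liver, at a ratio of 0.244 (log2 fold change -2.03 ± 0.58 (SE), edgeR adjusted p = 0.232). Liver c held the value of 378.1 CPM, and without it the log2 fold change was -3.34 (edgeR adjusted p = 0.0084), while DESeq2 on all livers gave an adjusted p of 0.0229. The fasting list had the same order as Insig2 within 3 of the 5 groups. Its mean log2 level was highest in the 3 AAV8-null livers at 16 dpc, from 9.16 to 9.98, and within AAV8-p21 at 16 dpc it was 7.105, 7.94 and 8.89 in livers a, b and c, the order of their Insig2 levels. The orders were also the same in mice 1, 2 and 3 with AAV8-null, at 7.46, 6.85 and 8.65 at 8 dpc and at 9.16, 9.98 and 9.3 at 16 dpc. In NP mice 1, 2 and 3 it was 8.05, 8.54 and 8.33, the reverse of their Insig2 levels, and with AAV8-p21 at 8 dpc mouse 3 had the highest fasting mean (7.79) and the lowest Insig2 level. Of its 13 genes, 10 were wholly higher at 16 dpc with AAV8-null than in NP livers, against 12.1% of all genes. By the edgeR test 2 of them (Pdk4 and Plin2) rose, where 6.52% of all genes passed. The part of that programme in the Insig2 levels was not tested.

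**Figure D5:**
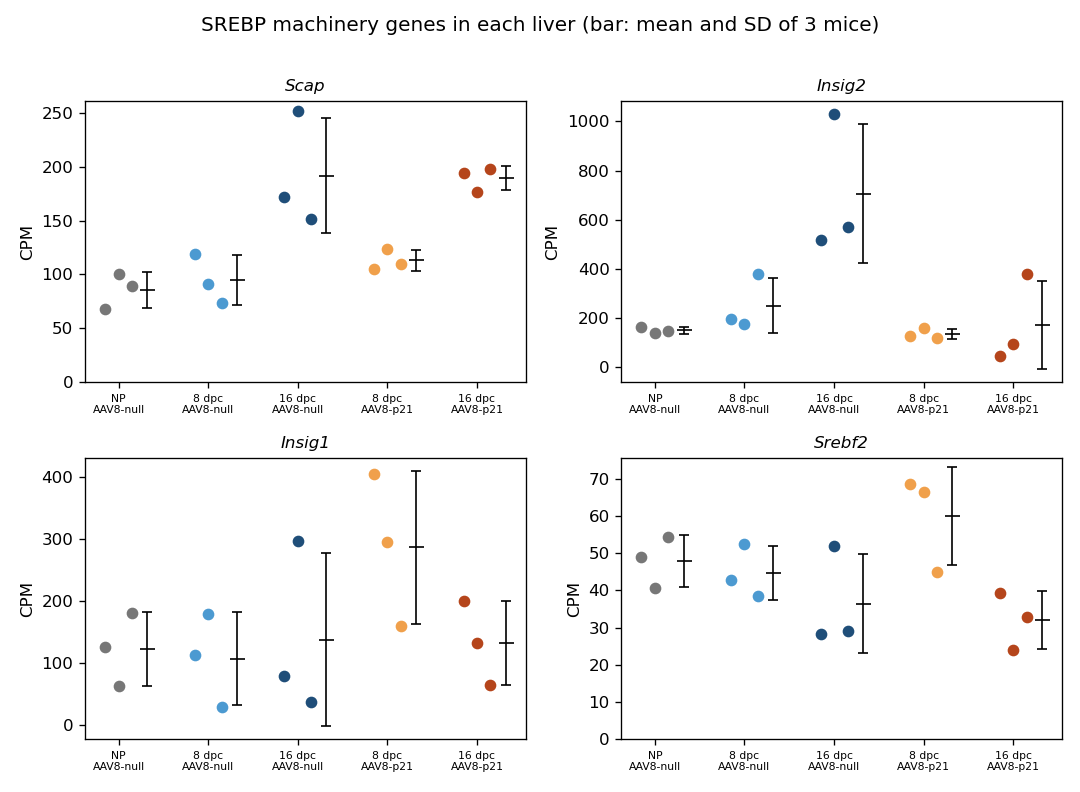
CPM of Scap, Insig2, Insig1 and Srebf2 in each liver (points, 3 mice a group), with the mean and SD of each group as a bar. Scap is higher in all 6 livers at 16 dpc than in the other 9, Insig2 is highest in the 3 livers with AAV8-null at 16 dpc, and Insig1 and Srebf2 overlap between most groups.

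Insig1 encodes the other anchor and is itself a target of SREBP. It was at 112.4, 179.6 and 29.4 CPM with AAV8-null at 8 dpc and at 405.7, 295.4 and 159.9 CPM with AAV8-p21, overlapping by 1 liver (log2 fold change 1.42 ± 0.73 (SE), edgeR adjusted p = 1). Its values at 16 dpc were 79.4, 297.6 and 37.1 CPM with AAV8-null and 200.3, 133.2 and 64.6 CPM with AAV8-p21. In NP livers it was at 125.5, 62.9 and 181.5 CPM, so in each group its lowest liver was the one lowest for the most enzymes. Insig1 and Insig2 were both highest in mouse 2 of the AAV8-null group at 16 dpc, the liver that was highest of its group for all 4 genes of the SREBP machinery.

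Srebf2, encoding SREBP2, was steadier, 2.86-fold from the lowest to the highest of 15 livers. It was at 49.0, 40.6 and 54.3 CPM in NP livers, at 42.7, 52.6 and 38.5 CPM at 8 dpc and 28.3, 51.8 and 29.1 CPM at 16 dpc with AAV8-null. With AAV8-p21 the 8 dpc livers held 68.55, 66.5 and 44.9 CPM of it, while those of 16 dpc held 39.35, 24.0 and 32.7 CPM, wholly lower at the later stage but short of the threshold in edgeR (log2 fold change -0.91 ± 0.27 (SE), adjusted p = 0.0799). DESeq2 gave an adjusted p of 0.033 for that difference.

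From 8 to 16 dpc with AAV8-p21, 0 members passed in edgeR, where 3.32% of all genes did, and 4 had an unadjusted p under 0.05, against 16.4% of all genes. DESeq2 passed 2 members, against 5.77%, and limma voom 4, against 14.9%, so these counts too were near or under the shares of all genes. Wholly higher at 16 dpc were Scap, Abcg5, Abcg8 and Mylip, 4 of 30 against 11.5% of all genes, and wholly lower were Srebf2, Stard4 and Nr1h2, 3 of 30 against 11.4%, shares near those of all genes. Endothelial markers also stood wholly higher at 16 dpc in sum (105.8 to 139.9 and 157.8 to 173.3 CPM), as did hepatocyte markers (106000 to 128300 and 269600 to 302200 CPM), while lymphocyte markers stood wholly lower (2.12 to 2.73 and 1.09 to 2.11 CPM), and their part was not tested. Among the enzymes 16 of 19 had negative values, with a median of -0.69 and none without overlap. With AAV8-null from 8 to 16 dpc, Insig2 and Scap were wholly higher (against 12.5% of all genes) and Nr1h2 wholly lower (against 12.9%), and 15 of 19 enzyme values were negative, with a median of -0.44.

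Markers of other liver cells moved with Scap from 8 to 16 dpc in the AAV8-null livers. The endothelial sum ran from 81.3 to 112.8 CPM at 8 dpc and from 159.9 to 215.2 CPM at 16 dpc, with Clec4g and Pecam1 rising, and the stellate sum from 84.6 to 138.1 and from 169.4 to 246.4 CPM, with Dcn rising. The hepatocyte sum ran from 73720 to 93360 and from 307500 to 431900 CPM, with Alb, Apoa1 and Asgr1 rising. Erythroid genes stood wholly higher in sum (89.3 to 102.1 and 109.4 to 169.4 CPM) and bile duct markers wholly lower (18 to 26.8 and 8.42 to 17.3 CPM), while the Kupffer and lymphocyte sums overlapped. Of 13 fasting genes 8 were wholly higher and Pdk4, Acot2 and Plin2 rose. Of all genes 12.5% were wholly higher in this comparison, and 6.87% passed in either direction. The part of the markers and the fasting genes in the Scap call was not tested.

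With AAV8-null, Insig2 was the 1 member wholly higher at 8 dpc than in NP livers, against 4.69% of all genes, and none was wholly lower, against 5.52%. The stellate sum was wholly lower at 8 dpc (160.7 to 185.4 CPM in NP livers and 84.6 to 138.1 CPM). Wholly lower were 2 of 5 stellate and 2 of 5 endothelial markers. The hepatocyte, Kupffer, bile duct, erythroid and lymphocyte sums overlapped, and the part of the markers was not tested. In edgeR 0 members and 0% of all genes passed, with 1 member, Mylip, at an unadjusted p under 0.05, against 6.6% of all genes. DESeq2 passed 0 members, against 0.457% of all genes, and limma voom with sample weights 5 (Ebp, Dhcr7, Abcg5, Abcg8 and Mylip), against 15.2%, a share near that of all genes. The enzymes had a median log2 fold change of 0.13, and at 16 dpc against NP one of -0.13, each with the 3 livers of a group spread over more than that. Against NP livers, the AAV8-p21 livers at 16 dpc were wholly higher for Scap and Abca1 (against 9.95% of all genes) and wholly lower for Srebf2 and Nr1h2 (against 10.3%), and 18 of 19 enzymes had positive values with a median of 0.55.

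The liver at 16 dpc differed from NP liver in the share of RNA taken by several marker genes. That bears on levels given relative to the library total, which were scaled by TMM. With AAV8-null the median log2 fold change of all genes from NP to 16 dpc was -0.0279. Alb, the albumin gene, took 9.76% to 10.8% of counts in NP livers and 23.5% to 27.8% at 16 dpc with AAV8-null, and the summed level of the 6 hepatocyte markers was 92490 to 109000 CPM in NP livers and 307500 to 431900 CPM at 16 dpc. Of those 6, 3 rose and 1 fell, where 6.52% of all genes passed. Bile duct markers ran from 19.7 to 31.4 CPM in NP livers and from 8.42 to 17.3 CPM at 16 dpc, erythroid genes from 49.6 to 99.7 and from 109.4 to 169.4 CPM, while Kupffer, endothelial and stellate sums overlapped. The lymphocyte sum was wholly lower at 16 dpc (1.77 to 2.91 and 0.50 to 1.43 CPM). Single markers that passed were Lrat of the stellate list, which fell, and Hbb-bs and Alas2 of the erythroid list, which rose. The AAV8-p21 livers at 16 dpc likewise stood wholly above NP livers in the hepatocyte sum (269600 to 302200 CPM, with Alb, Apoa1 and Asgr1 rising) and the erythroid sum (123.9 to 167.1 CPM, with Alas2 rising), and the other marker sums overlapped. The part of these markers in the Scap and Insig2 rises was not tested.

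Stard4, encoding a soluble carrier that moves cholesterol between membranes, was among the members wholly higher with AAV8-p21 at 8 dpc. It was at 70.4, 81.9 and 43.1 CPM with AAV8-null at 8 dpc and at 110.5, 121.8 and 115.0 CPM with AAV8-p21, without overlap (log2 fold change 0.83 ± 0.34 (SE), edgeR adjusted p = 0.865). At 16 dpc it was at 55.1, 108.1 and 41.6 CPM with AAV8-null and 100.0, 109.5 and 73.8 CPM with AAV8-p21. There the groups overlapped.

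The LXR receptor genes were the steadiest members. Nr1h3, for LXR-alpha, stayed between 68.5 and 114.2 CPM over all 15 livers, and at 16 dpc it was at 88.0, 68.5 and 83.2 CPM with AAV8-null and 102.5, 96.7 and 88.3 CPM with AAV8-p21 (log2 fold change 0.26 ± 0.17 (SE), edgeR adjusted p = 0.641). Nr1h2, for LXR-beta, was at 36.7, 32.2 and 29.8 CPM in NP livers, at 31.0, 29.7 and 28.2 CPM with AAV8-null at 16 dpc, and at 23.6, 22.2 and 23.7 CPM with AAV8-p21 at 16 dpc, the 3 lowest of the 15 livers. Against NP livers its log2 fold change with AAV8-p21 was -0.51 ± 0.14 (SE; edgeR adjusted p = 0.057, DESeq2 adjusted p = 0.0123), and against AAV8-null at 16 dpc -0.36 ± 0.14 (SE; edgeR adjusted p = 0.424).

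The targets of LXR that drive efflux overlapped between AAV8-null and AAV8-p21 at both stages. Abca1, which loads cholesterol onto high-density lipoprotein, was at 46.5, 117.0 and 121.2 CPM in NP livers, at 84.4, 80.3 and 144.6 CPM at 8 dpc and 95.2, 242.4 and 220.6 CPM at 16 dpc with AAV8-null, and at 116.2, 126.8 and 43.1 CPM at 8 dpc and 126.2, 148.1 and 183.4 CPM at 16 dpc with AAV8-p21. Its value at 16 dpc against NP with AAV8-null was 0.97 ± 0.45 on the log2 scale (SE; edgeR adjusted p = 0.232). The livers of 1 group spread up to 2.94-fold, more than most differences between groups.

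Abcg5 and Abcg8, the divergent pair that exports sterols into bile, moved alike, and reads of their overlapping transcripts could be shared if strand was not used. Abcg8 was at 36.9, 86.4 and 94.7 CPM in NP livers, at 45.6, 25.5 and 86.7 CPM with AAV8-null at 8 dpc, and at 32.9, 36.9 and 49.2 CPM with AAV8-p21 at 8 dpc. With AAV8-p21 at 16 dpc it was at 87.9, 99.2 and 73.1 CPM, wholly above the same virus at 8 dpc (log2 fold change 1.13 ± 0.40 (SE), edgeR adjusted p = 0.151). Abcg8 passed there in edgeR on the compared groups alone (1.125, adjusted p = 0.0301) and by limma voom (1.35, adjusted p = 0.00466). In the AAV8-null group at 8 dpc mouse 3 was the highest liver for all 4 LXR targets and mouse 2 the lowest, the reverse of their order for 15 enzymes or more. In NP livers mouse 1 was lowest and mouse 3 highest for all 4, an order not the reverse of the enzymes', for which mouse 2 was lowest.

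Mylip, whose product lowers lipoprotein receptors on the cell surface, was the least abundant of the branch, between 3.36 and 20.3 CPM. It was at 5.19, 18.03 and 20.3 CPM in NP livers, at 6.23, 3.87 and 10.8 CPM with AAV8-null at 8 dpc (log2 fold change -1.06 ± 0.45 (SE), edgeR adjusted p = 0.651) and at 7.60, 4.28 and 3.36 CPM with AAV8-p21. At 16 dpc it was at 7.93, 11.8 and 10.8 CPM with AAV8-null and at 8.09, 11.6 and 10.4 CPM with AAV8-p21. The 2 groups at 16 dpc were thus close, with a difference of -0.02 ± 0.46 on the log2 scale (SE).

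Compared per length, the most abundant members in NP livers were Ebp, encoding an isomerase of the sterol arm, at 67.8 CPM per kilobase of exon, Sc5d at 50.6, Insig2 at 43.3 and Insig1 at 39.9, and the least abundant were Ggps1 at 1.45 and Idi1 at 1.86. The 3 NP livers ran from 107.2 to 233.8 CPM for Ebp and from 200.0 to 270.7 CPM for Sc5d, so that the order of these neighbours is within the spread between mice.

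Of 32 further genes of sterol handling listed beside the members, 31 were tested, and 5 (16.1%) passed in at least 1 of the 8 comparisons, where 10.8% of all genes did. By comparison 3 of 31 passed at 16 dpc against NP with AAV8-null (6.52% of all genes), 1 from 8 to 16 dpc with AAV8-null (6.87%), 2 from 8 to 16 dpc with AAV8-p21 (3.32%) and 2 with AAV8-p21 at 16 dpc against NP (3.81%). Tmem97, a sterol-linked membrane protein gene, rose in all 4 comparisons of 16 dpc with NP or with 8 dpc. It was at 38.2, 27.1 and 44.1 CPM in NP livers and at 104.3, 104.9 and 58.3 CPM at 16 dpc with AAV8-null (log2 fold change 1.29 ± 0.35 (SE), edgeR adjusted p = 0.0422), and at 193.2, 133.6 and 72.7 CPM with AAV8-p21 at 16 dpc. All 6 livers at 16 dpc lay above the highest of the other 9, which was at 54.5 CPM.

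Cyp7a1, the rate-limiting enzyme of bile acid synthesis, fell at 16 dpc with AAV8-null, from 72.5, 105.1 and 211.2 CPM in NP livers to 32.2, 5.75 and 7.65 CPM (log2 fold change -3.09 ± 0.78 (SE), edgeR adjusted p = 0.0295). With AAV8-p21 at 16 dpc it was at 251.9, 187.2 and 45.2 CPM, above every AAV8-null liver of that stage, though that difference did not pass. Scarb1, the receptor that takes cholesterol from high-density lipoprotein, fell in the same comparison (log2 fold change -0.78 ± 0.20 (SE), edgeR adjusted p = 0.0298), from 104.9, 160.5 and 142.9 CPM to 96.9, 63.6 and 77.5 CPM. Cyp39a1 fell at 16 dpc with AAV8-p21 against NP livers (log2 fold change -2.46 ± 0.54 (SE), edgeR adjusted p = 0.0206), and Hsd3b7 fell from 8 to 16 dpc with AAV8-p21 (-1.05 ± 0.27 (SE), edgeR adjusted p = 0.05 after rounding). Both encode enzymes of bile acid synthesis. Between AAV8-p21 and AAV8-null none of the 31 passed in edgeR at either stage, and the median log2 fold change of the list was 0.10 at 8 dpc and 0.19 at 16 dpc.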

How the data were processed

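Livers of 15 mice in 5 groups of 3 were sequenced from poly(A) libraries that keep strand. Per the submitters' processing notes and the methods, the authors used cutadapt 1.14 to trim the single-end reads, HISAT2 2.1.0 to place them on mm10, and counted unique reads of protein-coding genes with HTSeq 0.12.4, and the deposited values are raw counts. The strand setting and treatment of overlapping genes are not given in the sources used here. Columns were matched to samples by name. The numbers of the AAV8-p21 livers at 16 dpc differ between table and labels, so these were used as replicates a, b and c. Nothing states that mice shared a litter or batch. No 2 libraries of a group agreed within sampling noise.

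Total counts were 12280709 to 17615185 per library, and the lowest count of a member in any library was 28. edgeR 4.0.16 (R 4.3.3) was fitted to all 5 groups with TMM, the filter of filterByExpr at 10 counts and 10 residual degrees of freedom, and genes with a Benjamini-Hochberg adjusted p under 0.05 over 12172 genes were said to pass. Exact two-sided permutation tests used log2 of CPM plus 0.5. Scripts were tested on simulated data. Alternatives were DESeq2 1.42.0 (its size factors, and its Wald test), limma 3.58.1 voom with sample weights, other filters, a log2 fold change threshold of 1, the compared groups alone, the replicate block and each library left out.

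Members, lists and tests were chosen with earlier results of these data known. The rule named each member that passed a test, the SREBP and LXR genes Srebf2, Insig1, Nr1h3 and Abca1, and the 5 strongest further sterol genes per comparison; other members given in full were chosen after their values were seen. Gene positions and exon lengths came from GENCODE M21, and promoter windows from RefSeq on GRCm38.p6.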

Additional observations from a re-analysis of the deposited data

How the results depend on the processing

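Counts of members that passed moved with the test more than with scaling or filters: of 3180 single-gene values of the 30 members under an alternative, 3144 kept their side of the threshold, 9 lost a call and 27 gained one. The sign differed from the reported value in 256 of them, over 102 of 240 results and up to a reported log2 value of 1.06 in size, and in 0 of those that passed in either fit. At 8 dpc against NP with AAV8-null, voom passed 5 members in place of 0, against 15.2% of all genes. At 16 dpc against NP with AAV8-null the groups fitted alone gave 1 in place of 2, against 3.49%. From 8 to 16 dpc with AAV8-null, voom gave 3, the groups alone 0 and the replicate block 2 in place of 1, against 14.0%, 2.93% and 5.43%. From 8 to 16 dpc with AAV8-p21, DESeq2 gave 2, voom 4 and the groups alone 1 in place of 0, against 5.77%, 14.9% and 3.31%. For AAV8-p21 against AAV8-null at 16 dpc, DESeq2 and voom gave 1 each in place of 0, against 0.965% and 0.961%, and for AAV8-p21 at 16 dpc against NP, DESeq2 gave 2 and voom 8 in place of 1, against 5.92% and 19%. The share of all genes thus moved with the test as well. The cause was not tested.

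With each library left out in turn, the counts ran from 1 to 2 (16 dpc against NP, AAV8-null), from 0 to 1 (8 to 16 dpc with either virus, and AAV8-p21 against AAV8-null at 16 dpc) and stayed at 1 (AAV8-p21 at 16 dpc against NP) or 0 (8 dpc against NP, AAV8-p21 against AAV8-null at 8 dpc, the interaction). Members wholly higher with AAV8-p21 ran from 16 to 21 at 8 dpc and from 1 to 10 at 16 dpc, alternatives chosen after seeing the data. Leaving a library out cannot lower such a count. DESeq2 size factors left these counts at 16 and 1. Size factors moved the median of all genes by under 0.1 on the log2 scale.

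Same-numbered livers are different mice, and the correlation of their deviations ran from -0.576 to 0.472, so the numbers were not taken as pairs. The replicate block could be fitted for the 12 libraries with a number, and gained Insig2 from 8 to 16 dpc with AAV8-null (adjusted p = 0.0343). Neither thinned counts nor other group sizes were tried.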
